A study of Caenorhabditis elegans with 2 samples.

Results

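Regions at small nucleolar RNA (snoRNA) genes were the pooled regions of a ChIP-seq experiment on ZTF-7 whose summit lay within 500 bp of a gene annotated as snoRNA, and 254 of 30000 pooled regions met this rule. ChIP-seq recovers and sequences the DNA bound by a protein, here the zinc-finger protein ZTF-7 of Caenorhabditis elegans, a nematode, with an eGFP tag. The animals were whole L4 larvae of mixed sex of strain OP332 (genotype unc-119(tm4063) III; wgIs332), in which the tagged protein comes from the integrated transgene wgIs332, and 2 biological replicates formed the only group. Control samples were not analysed here, so whether a region is specific to ZTF-7 was not tested, and in whole larvae the cells that gave the signal are not known. The summit is the position of the highest signal within a region, and the pooled list ranks regions from 1 for the strongest. The authors' list of regions past their irreproducible discovery rate (IDR) threshold, a measure of how well 2 replicates rank the same regions, held 1311 regions, and a region in it is called an IDR region.

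snoRNAs guide enzymes to ribosomal and spliceosomal RNAs: C/D box snoRNAs direct methylation of the ribose, and H/ACA box snoRNAs direct the change of uridine to pseudouridine. In vertebrates most snoRNAs lie in introns and are cut out of the host transcript. In nematodes many snoRNA genes lie in introns or between genes and carry promoter elements of their own. One such element is the proximal sequence element (PSE), the upstream promoter element of snRNA genes. A box and B box sequences are the promoter elements inside tRNA genes that the RNA polymerase III factor TFIIIC recognises. Of the 346 snoRNA genes, 169 lay wholly in introns of protein-coding genes (142 on the strand of the host gene and 27 on the other), 124 overlapped no protein-coding gene and are called intergenic, and 53 overlapped an exon. Each region was classed by its nearest snoRNA gene, which gave 109 intronic, 111 intergenic and 34 exon-overlapping regions. No pair of the 346 genes had an identical sequence.

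The DNA just before the 5′ end of snoRNA genes with an IDR summit there is shown first. The sequences below are 100 bases before the 5′ end and the first 10 bases of the gene, on the strand of the gene, from the RefSeq copy of the ce11 assembly. Capitals mark the letters searched for. They are GNAACNNG and, 5 bases on, TGTC for the PSE, TGGNNNANNGG for the A box and GTTCNANNC for the B box. These letters were chosen after the sequences had been read and were searched on the strand of the gene. The first 4 genes are shown for the PSE, with ZK994.7 and F01D5.12 in introns and Y53F4B.47 and T26A8.6 between genes.
ZK994.7: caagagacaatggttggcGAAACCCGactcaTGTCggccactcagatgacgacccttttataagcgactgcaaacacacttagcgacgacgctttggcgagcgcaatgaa
F01D5.12: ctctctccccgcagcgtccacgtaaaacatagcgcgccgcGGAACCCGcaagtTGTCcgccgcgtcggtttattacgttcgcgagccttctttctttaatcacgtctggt
Y53F4B.47: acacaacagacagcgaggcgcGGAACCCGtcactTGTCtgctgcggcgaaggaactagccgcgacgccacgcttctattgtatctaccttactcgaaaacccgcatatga
T26A8.6: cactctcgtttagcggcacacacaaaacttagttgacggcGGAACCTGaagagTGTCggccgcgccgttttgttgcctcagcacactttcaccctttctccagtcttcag
They lie at chrV:8500479-8500588 on the plus strand, chrII:14018432-14018541 on the minus strand, chrII:15025884-15025993 on the minus strand and chrIV:8428730-8428839 on the minus strand. The next 4 genes are shown for an A box followed by a B box, with T03F7.8 and C05D2.15 in introns and Y75B12B.12 and F30H5.4 between genes.
T03F7.8: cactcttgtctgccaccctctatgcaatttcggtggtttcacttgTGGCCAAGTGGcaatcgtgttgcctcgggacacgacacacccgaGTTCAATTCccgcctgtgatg
C05D2.15: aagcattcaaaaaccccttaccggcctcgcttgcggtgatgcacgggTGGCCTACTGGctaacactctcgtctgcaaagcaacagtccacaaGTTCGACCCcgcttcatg
Y75B12B.12: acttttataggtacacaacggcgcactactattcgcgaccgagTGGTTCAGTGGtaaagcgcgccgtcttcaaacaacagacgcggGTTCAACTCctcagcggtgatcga
F30H5.4: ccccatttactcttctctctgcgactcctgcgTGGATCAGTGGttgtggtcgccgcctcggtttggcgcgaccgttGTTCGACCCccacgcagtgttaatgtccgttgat
They lie at chrV:11314158-11314267 on the plus strand, chrIII:5602170-5602279 on the minus strand, chrV:15191084-15191193 on the minus strand and chrIII:502704-502813 on the plus strand. The last pair had an IDR summit just before the 5′ end but no exact match to these letters, with T04A8.17 in an intron and M7.15 between genes. T04A8.17 does hold a stretch that differs from the A box in a single letter. It also holds a stretch that differs from the B box in a single letter.
T04A8.17: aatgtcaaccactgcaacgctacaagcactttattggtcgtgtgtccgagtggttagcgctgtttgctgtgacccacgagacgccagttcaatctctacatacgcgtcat
M7.15: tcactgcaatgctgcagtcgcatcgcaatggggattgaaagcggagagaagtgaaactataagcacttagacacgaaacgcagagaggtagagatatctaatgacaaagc
They lie at chrIII:4689762-4689871 on the minus strand and chrIV:11083047-11083156 on the plus strand.

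Regions at snoRNA genes were found in the IDR list more often than other regions, and about as often at intronic as at intergenic genes. Of the 254 regions, 72 were IDR regions (28.3%, exact 95% interval 22.9 to 34.3), against a background of 4.37% of all pooled regions and 4.09% of the 29723 other nuclear regions. The difference from the other nuclear regions was 24.3 percentage points (Newcombe 95% interval 19.1 to 30.1). Intronic snoRNA regions were IDR regions in 35 of 109 cases (32.1%, 23.5 to 41.7) and intergenic ones in 32 of 111 (28.8%, 20.6 to 38.2). The intronic minus intergenic difference was 3.28 points with an interval from -8.80 to 15.3, which holds 0 and also differences of either sign of several points. Regions at exon-overlapping genes were IDR regions in 5 of 34 cases (14.7%, 4.95 to 31.1). All these intervals cover counting error only and take regions as independent. The replicates' own values are given below.

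Away from snoRNA genes, intronic and intergenic regions did differ. Of 11612 other regions in introns of coding genes 215 were IDR regions (1.85%, 1.61 to 2.11), against 922 of 13993 other intergenic regions (6.59%, 6.18 to 7.01), a difference of -4.74 points (-5.22 to -4.26). Regions at intronic snoRNA genes thus exceeded other intronic regions by 30.3 points (22.2 to 39.5), and those at intergenic snoRNA genes exceeded other intergenic regions by 22.2 points (14.6 to 31.3). Among regions more than 500 bp from the 5′ end of any coding gene, 24 of 82 intronic snoRNA regions (29.3%) and 22 of 85 intergenic ones (25.9%) were IDR regions, against 1.30% of 10011 other intronic and 3.12% of 9715 other intergenic regions, tRNA regions left out. Regions at tRNA genes, the closest class by share, were IDR regions in 134 of 502 cases (26.7%). The difference, snoRNA minus tRNA regions, was 1.65 points (-4.92 to 8.55).

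**Figure D1:**
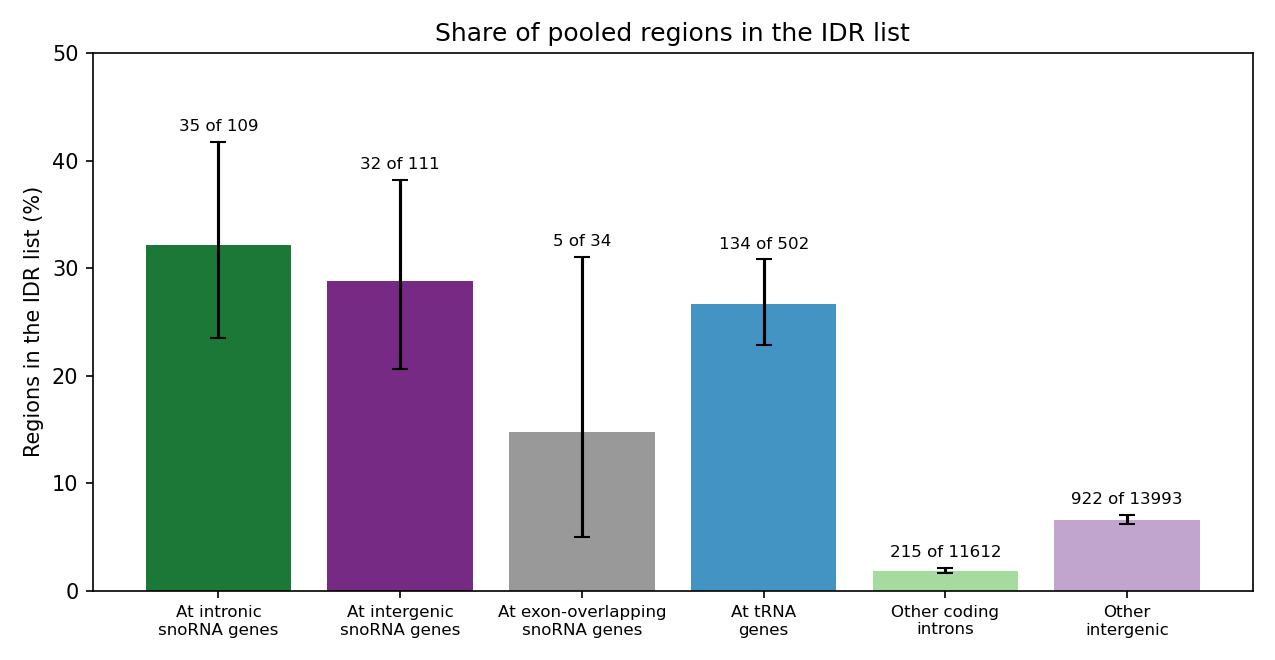
The vertical axis is the percentage of pooled regions found in the IDR list, with exact 95% intervals as error bars and the counts above each bar. The intronic and intergenic snoRNA bars stand at 32.1% and 28.8% with overlapping intervals, while other intronic and other intergenic regions stand at 1.85% and 6.59%.

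The intronic regions were also split by the strand of the host. At snoRNA genes on the strand of the host, 28 of 87 regions were IDR regions (32.2%), and at genes on the opposite strand 7 of 22 (31.8%), a difference of 0.37 points with an interval from -22.3 to 19.0, too wide to tell the strands apart or alike.

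Signal, the peak caller's own value per region, compares regions within 1 list. In the pooled list the median signal was 25.6 at intronic snoRNA genes (95% interval of the median 18.8 to 33.1, quartiles 14 and 58) and 24.4 at intergenic ones (19.7 to 33.4, quartiles 13.3 and 52.3), against 14 over all pooled regions. The classes overlapped over nearly their whole range, from 8.72 to 420.1 at intronic and from 8.66 to 168.2 at intergenic genes. IDR regions had a median signal of 71.3 at intronic and 73.0 at intergenic genes and ranked between 21 and 1284. All 72 IDR regions at snoRNA genes had a higher pooled signal than any of the 182 others (lowest 49.6 against highest 48.5). Among these regions, IDR share and pooled signal are therefore not separate results. In the replicate 1 list the medians were 8.24 at intronic and 9.82 at intergenic genes, against 4.84 over that list. In the replicate 2 list they were 16.9 and 19.1, against 11.8 over that list. The order of intronic and intergenic medians was therefore opposite in the pooled list and in each replicate list, and the quartile ranges overlapped in all 3.

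**Figure D2:**
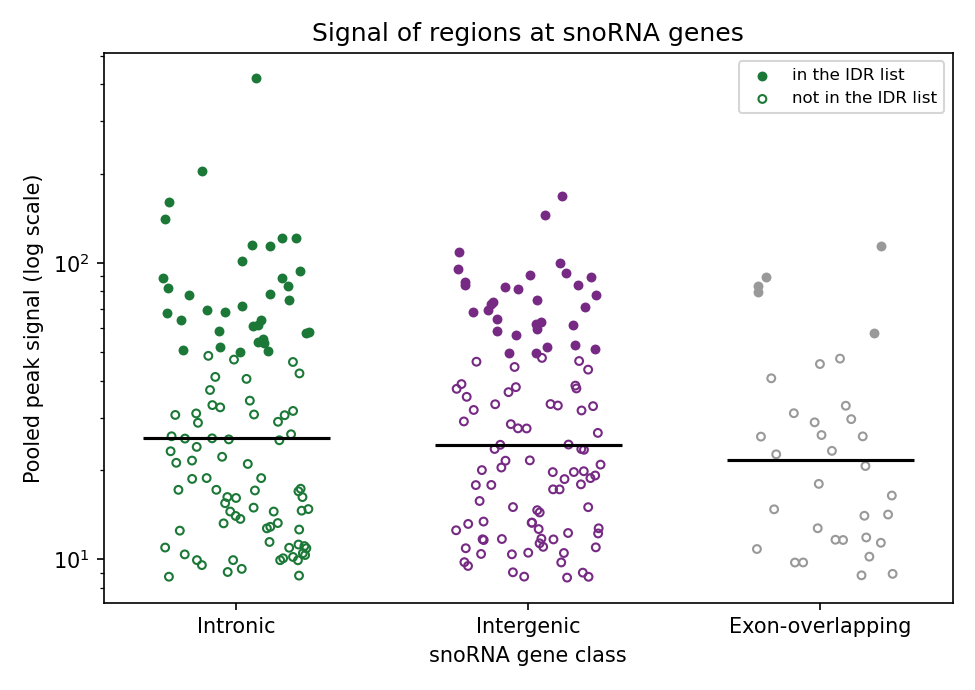
Each point is 1 region, with the pooled peak signal on a logarithmic vertical axis and the class of the nearest snoRNA gene on the horizontal axis. Filled points are IDR regions, open points are not, and black lines mark medians of 25.6 (intronic), 24.4 (intergenic) and 21.6 (exon-overlapping).

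IDR summits at snoRNA genes gathered just upstream of the 5′ end. They lay upstream of the snoRNA gene in 64 of 72 cases, and 57 of 72 (79.2%) lay between 150 bp before and 30 bp after its 5′ end, a stretch called the core window here and chosen after the positions had been seen. Regions not in the IDR list had their summit in the core window in 49 of 182 cases (26.9%). The 57 IDR summits in the core window had a median position 55 bp before the 5′ end (quartiles 39 and 75 bp), from 106 bp before to 19 bp after it. By class the median was 53.5 bp before the 5′ end at 26 intronic genes and 64 bp before it at 28 intergenic genes, with quartiles of 33.8 and 65.3 bp at intronic and 38.8 and 75 bp at intergenic genes. These ranges overlapped widely.

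Read the other way, 57 of 106 core regions were IDR regions (53.8%, 43.8 to 63.5) and 15 of 148 regions outside the core window were (10.1%, 5.78 to 16.2). Since the window was drawn around these same IDR summits, the shares inside and outside it are descriptions and no difference between them was tested. Within the core window the share was 26 of 48 at intronic genes (54.2%) and 28 of 48 at intergenic genes (58.3%), a difference of -4.17 points (-23.1 to 15.2). It was 3 of 10 at exon-overlapping genes. From 50 to 100 bp upstream 32 of 49 regions were IDR regions (65.3%), and up to 50 bp upstream 19 of 37 were (51.4%). More than 30 bp downstream of the 5′ end, over the gene body and beyond, it was 4 of 94 (4.26%), close to the background of 4.37%.

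**Figure D3:**
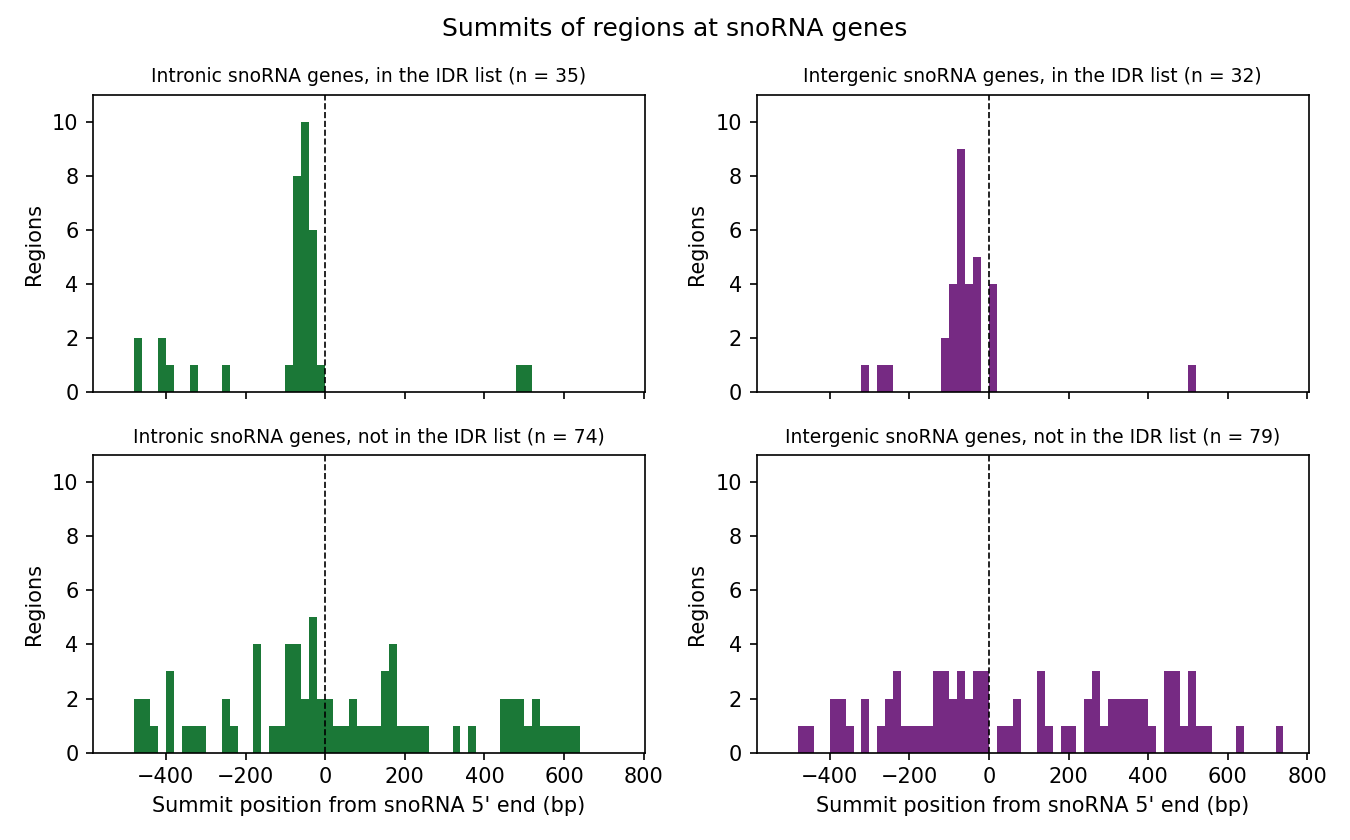
Histograms of summit position relative to the snoRNA 5′ end in bp (negative is upstream, bins of 20 bp), with intronic genes on the left, intergenic genes on the right, IDR regions above and the others below. IDR summits pile up within about 100 bp upstream of the 5′ end in both classes, with medians over all IDR regions of 55 and 65.5 bp upstream, while the other summits spread over the whole window.

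Of the 15 IDR regions outside the core window, 10 had their summit within 500 bp of the 5′ end of a coding gene, including 8 of the 9 intronic ones. The 8 intronic ones lay at snoRNA genes of rps-12 (F54E7.10, signal 160.5), nol-56 (K07C5.11, 74.9), rpl-24.1 (D1007.20, 71.3), ubl-1 (H06I04.9, 61.2), rpl-6 (R151.11, 54.0), fcd-2 (Y41E3.464, 52.1), zip-2 (K02F3.15, 50.6) and tag-115 (JC8.15, 50.4). Of these 8 regions, those other than the one at F54E7.10 were named after their values were seen. Of the 57 core regions 14 lay within 500 bp of a coding 5′ end, and none lay within 500 bp of a tRNA gene.

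By gene, 194 of 346 snoRNA genes had a pooled region within 500 bp (56.1%) and 72 had an IDR summit there (20.8%, 16.7 to 25.5), against 6.33% of 31563 genes other than piRNA genes. The counts were 36 of 169 intronic genes (21.3%, 15.4 to 28.3), 31 of 124 intergenic genes (25%, 17.7 to 33.6) and 5 of 53 exon-overlapping genes (9.43%, 3.13 to 20.7). In the core window 58 of 346 snoRNA genes had an IDR summit (16.8%, 13 to 21.1), with each gene taken by itself, against 1.82% of all genes other than piRNA genes. The same count was 125 of 634 tRNA genes (19.7%), 12 of 129 snRNA genes (9.30%) and 284 of 19985 protein-coding genes (1.42%). Since the core window was drawn around IDR summits at snoRNA genes, it can favour them over other genes. These core window shares are therefore descriptions, and no difference between gene types was tested. On the X chromosome 2 of 33 snoRNA genes had an IDR summit within 500 bp (6.06%, 0.743 to 20.2), and on the autosomes the share ran from 18.9% on chromosome I to 32.7% on chromosome V. Of the 2 on X, the region at M163.14 had its summit 34 bp from a tRNA gene. The share of all genes on X is not given here, so whether the low share is particular to snoRNA genes was not tested.

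The strongest intronic regions are known by the snoRNA genes they lie beside, whose individual targets are not given in the annotation. The region at K02F3.15 (chrIII:833781-834045), in an intron of the bZIP transcription factor gene zip-2, had a pooled signal of 420.1 (rank 21), with 202.7 in replicate 1 (rank 8) and 221.2 in replicate 2 (rank 27). The position of its summit was 488 bp downstream of the 5′ end, past the gene body, and a second IDR region of the same gene (50.6) lay 337 bp upstream, 116 bp from a coding 5′ end. ZK994.7 (region chrV:8500431-8500618), in an intron of the peroxidasin gene pxn-1, had 204.5 in the pooled list, 117.3 in replicate 1 and 90.0 in replicate 2, with its summit 47 bp upstream. It was the strongest region in the core window and ranked 27 and 99 in the replicates. F54E7.10 (region chrIII:5679059-5679212), in an intron of rps-12, had 74.1 in replicate 1 and 82.8 in replicate 2, and its summit lay 118 bp from a coding 5′ end.

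The next regions of the intronic 10 all had summits between 21 and 75 bp upstream of the snoRNA 5′ end. ZK484.9, on the strand opposite to its host haf-9, an ABC transporter gene, had 67.8 in replicate 1 and 64.5 in replicate 2 (pooled 140.6). D1046.6, in cfim-2, which encodes a subunit of a pre-mRNA cleavage factor, had 48.7 in replicate 1 and 72.0 in replicate 2 (pooled 121.4). F11A10.9, in rbm-34, had 69.1 and 50.1 in replicates 1 and 2 (pooled 120.8). D1046.6 ranked higher in replicate 2 and the other 2 in replicate 1. F55A11.10 had 72.8 and 39.0 (pooled 114.5), the widest gap of ranks among these 10 genes, 72 in replicate 1 and 771 in replicate 2. T03F7.8, opposite to cutl-18, had 56.7 and 54.5 in replicates 1 and 2 (pooled 114.0). T08B2.13, in the phenylalanyl-tRNA synthetase gene fars-1, had 44.3 and 60.1 in replicates 1 and 2 (pooled 101.2), and C05D2.15, in madf-11, had 41.7 and 53.7 (pooled 93.8). All 10 regions stood among the strongest 1311 of both replicate lists.

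The strongest intergenic region lay at Y53F4B.47 (chrII:15025899-15026064), with a pooled signal of 168.2, 68.1 in replicate 1 and 96.8 in replicate 2, and a summit 82 bp upstream. F17C11.24 had 2 IDR regions, with summits 105 and 305 bp upstream and pooled signals of 145.2 (chrV:10940635-10940825) and 86.2 (chrV:10940856-10941013). The strongest overlapping region of replicate 1 was the same for both (42.6), and in replicate 2 they had 99.98 and 58.6. Whether replicate 1 held a second, weaker region there was not checked. F30H5.4 had 57.0 in replicate 1 and 52.9 in replicate 2 (pooled 108.3), with its summit on the first base of the gene. M7.15 had 53.5 and 46.8 in replicates 1 and 2 (pooled 99.4), and T06C12.16 had 48.2 and 47.4 (pooled 95). Both ranked higher in replicate 1. C36E8.11 had 24.5 in replicate 1 (rank 1162) and 66.1 in replicate 2 (rank 180), and the pooled value was 92.1. K02C4.8 had 43.7 and 34.6 in replicates 1 and 2 (pooled 90.7), F59C6.15 had 47.7 and 43.9 (pooled 89.2), and ZK265.10 had 44.1 and 43.3 (pooled 83.9). All 10 regions stood among the strongest 1311 of both replicate lists, and 9 had their summit in the core window.

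The replicates shared nearly all IDR regions, at snoRNA genes and over the whole list, but ranks differed between them. A region overlapped each of the 72 in the replicate 1 list and 71 of the 72 in the replicate 2 list, so 71 of 72 had one in both (98.6%, 92.5 to 99.96). Over the whole IDR list 1279 of 1311 regions had one in both. The IDR step itself compares the 2 replicates, so these counts are descriptions. The exception among the 72 was T06D8.11, in an intron of plpr-1, with a pooled signal of 58 and 33.1 in replicate 1. Of the 72, 43 were among the strongest 1311 in both replicates (59.7%), 20 in replicate 1 only, 6 in replicate 2 only and 3 in neither, where 634 of all 1311 IDR regions (48.4%) were in both. Taken by replicate alone, the strongest 1311 (4.37% of each list) held 37 of 126 intronic (29.4%) and 32 of 131 intergenic snoRNA regions (24.4%) of replicate 1. In replicate 2 they held 27 of 104 intronic (26.0%) and 22 of 108 intergenic ones (20.4%). The intronic share was the higher one in both lists, and their exact intervals overlapped. Over the 184 members with a region in both replicates, Spearman's rank correlation between the replicates was 0.70, and over the 71 IDR regions with one in both it was 0.32 (0.40 over 34 intronic and 0.22 over 32 intergenic ones). These correlations are descriptions, since the same regions of both libraries also make up the pooled list. The IDR regions cover a narrower span of ranks than all members. The correlation over all 1311 IDR regions is not given here, so the lower value cannot be called particular to snoRNA regions.

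**Figure D4:**
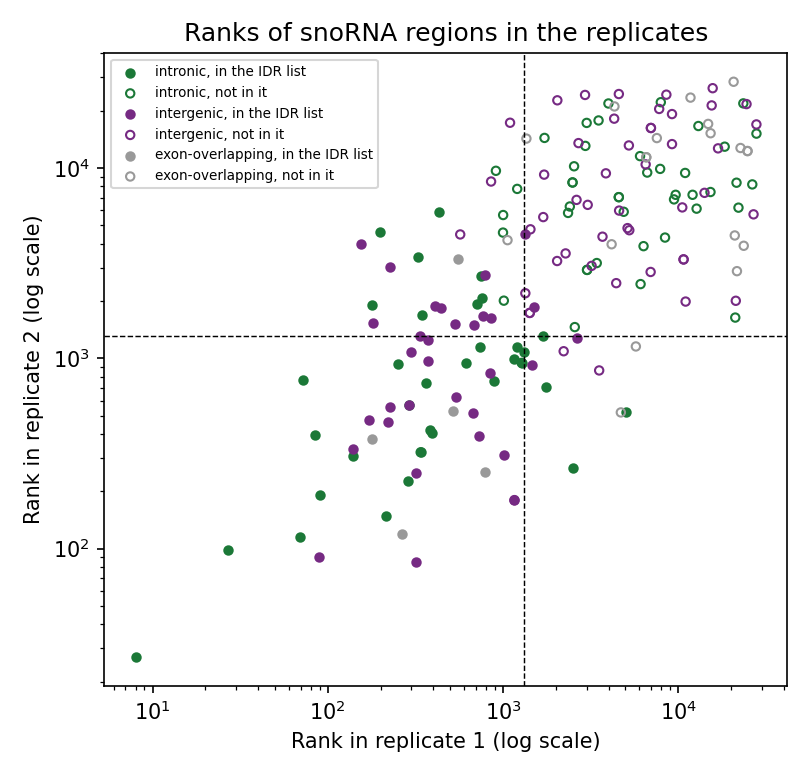
Each point is a snoRNA region found in both replicate lists, with its rank in replicate 1 on the horizontal and in replicate 2 on the vertical axis (both logarithmic, 1 is strongest). Dashed lines mark rank 1311, and more IDR regions lie past the line in replicate 2 than in replicate 1. Of the 72 IDR regions, 20 were among the strongest 1311 in replicate 1 only, 6 in replicate 2 only and 3 in neither. T06D8.11, among the 20, had no region in replicate 2 and is not plotted.

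The upstream elements shown above were frequent at the snoRNA genes with an IDR summit in the core window. Over 120 bp before the 5′ end and 10 bp after it, 44 of the 57 genes (77.2%) had a match to at least 1 of the 3 elements, against 46 of the other 289 snoRNA genes (15.9%) and 524 of 19985 protein-coding genes (2.62%). A PSE match stood before 16 of the 57 genes (28.1%), before 16 of the 289 (5.54%) and before 10 coding genes (0.0500%). An A box and a B box together stood before 12 of the 57 (21.1%), 4 of the 289 (1.38%) and 4 coding genes (0.0200%). An A box stood before 19 of the 57 genes and 0.746% of coding genes, and a B box before 22 of the 57 and 1.85% of coding genes. Since the letters were read off these genes, the counts are descriptions and carry no test. A match is not shown to be a site in use.

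Seen from the elements, 12 of 16 snoRNA genes with both boxes had an IDR summit in the core window (75%, 47.6 to 92.7), and 16 of 32 genes with a PSE match did (50%, 31.9 to 68.1). With 1 of the 2 boxes and no PSE the count was 16 of 42 (38.1%, 23.6 to 54.4), and with no match 13 of 256 (5.08%, 2.73 to 8.53). The letters and the core window were both chosen on these same genes and summits. A higher share with a match than without was therefore built in, and these shares and their intervals are descriptions that carry no test. Leaving out replicate 1 (the strongest 1311 of replicate 2 alone) gave 5 of 16 genes with both boxes (31.3%), 11 of 32 with a PSE match (34.4%) and 9 of 256 with no match (3.52%). Leaving out replicate 2 gave 14 of 16 (87.5%), 14 of 32 (43.8%) and 17 of 256 (6.64%). The higher share for both boxes than for the PSE was thus found in replicate 1 and in the IDR list and not in replicate 2.

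The elements were found before intronic and intergenic genes. Among genes with an IDR summit in the core window, a PSE match stood before 9 of 26 intronic and 7 of 28 intergenic genes, and both boxes before 6 of 26 intronic and 6 of 28 intergenic genes. At least 1 element stood before 22 of 26 intronic and 20 of 28 intergenic genes. Over all genes of a class, whatever their signal, the share with an element was 27.2% of 169 intronic, 28.2% of 124 intergenic and 17.0% of 53 exon-overlapping genes. None of the 53 exon-overlapping genes had a PSE match.

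Most matches stood at a narrow range of distances from the snoRNA 5′ end. The first base of the PSE match lay 56 to 82 bp upstream over 32 genes, with a median of 60.5 bp, and exactly 60 bp upstream in 11 of them. The A box had a median position 58 bp upstream over 37 genes, with a wider full range of 3 to 117 bp. The B box had a median position 14 bp upstream over 38 genes, with a full range of 5 to 70 bp. At genes with an IDR summit in the core window the medians were 60 bp for the PSE, 57 bp for the A box and 14 bp for the B box, and at the other genes they were 61, 59.5 and 13.5 bp. An A box with 1 more base between its last fixed letters stood before 23 snoRNA genes and, where it was counted too, 47 of the 57 genes had an element (82.5%), against 52 of the 289 (18.0%).

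**Figure D5:**
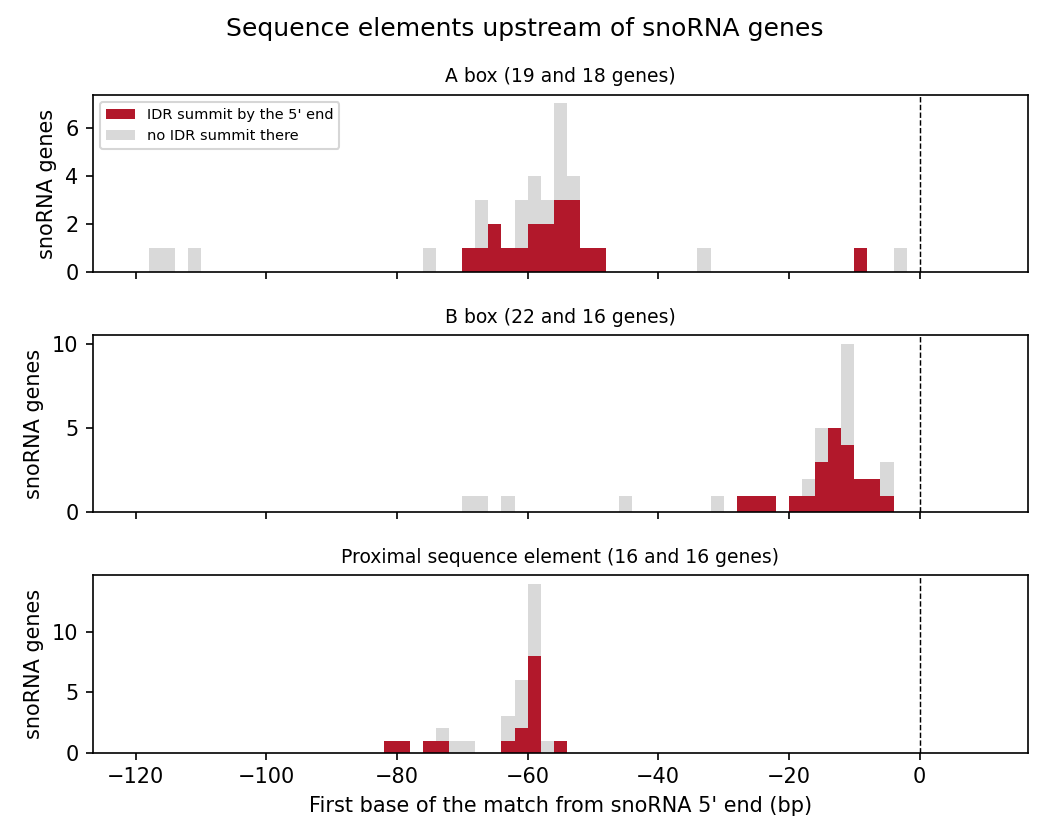
Stacked histograms of the first base of the A box, B box and PSE match relative to the snoRNA 5′ end in bp (bins of 2 bp), counted in snoRNA genes. Red marks genes with an IDR summit in the core window and grey the others, and both colours stand at about 58 (A box), 14 (B box) and 60.5 bp (PSE) upstream.

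Other short motifs were looked for on both strands within 100 bp of the summits. A narrower B box, GTTCGANNC, was found in 16 of 72 IDR regions at snoRNA genes (22.2%, 13.3 to 33.6), in 4 of the 182 others (2.20%), and in 2.11% of all pooled regions and 7.78% of all IDR regions. GAGAGAG was in 6.94% of the 72 and 8.79% of the 182 others, and in 17.2% of all IDR regions, where 1620 of the 30000 pooled regions held it (5.4%). TATAAA was in 13.9% of the 72 and 16.5% of the 182 others, and in 15.5% of all IDR regions and 26.1% of all pooled regions. TGATAA was in 13.9% of the 72 and 21.4% of the 182 others, and in 23.1% of all IDR regions and 24.3% of all pooled regions. CACGTG was in 2.78% of the 72 and 5.49% of the 182 others, and in 7.48% of all IDR regions and 3.36% of all pooled regions. Base composition also differed between these sets. The median GC content was 48.8% in the 72 IDR regions, 36.1% in the 182 others, 31.3% in all pooled regions and 41.3% in all IDR regions, and its part in the motif counts and in the signal was not tested.

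Classed by their own boxes, 6 of 14 genes with C and D boxes had an IDR summit within 500 bp (42.9%, 17.7 to 71.1), 19 of 91 with an H/ACA end did (20.9%, 13.1 to 30.7), and 47 of the 241 with neither did (19.5%, 14.7 to 25.1). The class needed TGATGA in the first 20 bases and CTGA in the last 20 for C/D, or else ACA in the last 8 bases. Most genes fell in neither class, and the 3 intervals overlapped.

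Host genes were also examined at their own 5′ ends. Of 149 host genes 21 had an IDR summit within 500 bp of their own 5′ end (14.1%, 8.94 to 20.7), against 848 of 19836 other coding genes (4.28%) and 4.35% of all coding genes. Hosts with an rpl or rps name, together with ubl-1, which encodes a ubiquitin fused to a ribosomal protein, had one in 7 of 14 cases, ubl-1 among the 7, and the other hosts in 14 of 135 (10.4%). Of the hosts with 3 or more snoRNA genes, nol-56 (4 snoRNA genes) had a summit of signal 74.9 and rpl-6 (3 snoRNA genes) one of 54.0, while top-2, a topoisomerase gene with 3, had none. No snoRNA gene of these 3 hosts had an IDR summit in its core window. The host regions at nol-56, rpl-6, pdl-1, rps-12, ubl-1, rpl-24.1, tag-115 and zip-2 were also counted above as IDR regions at intronic snoRNA genes. The host count and the snoRNA counts are therefore not independent.

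Of the 11 genes for proteins of snoRNPs or their assembly, 5 had an IDR summit within 1000 bp of the 5′ end, where 5.61% of protein-coding genes did. They were nola-3 (signal 85.8), a core protein of H/ACA snoRNPs, the C/D core protein genes nol-56 (74.9) and nol-58 (69.5), and ruvb-2 (69.8) and ruvb-1 (59.7), ATPases that assemble C/D snoRNPs. Pooled regions outside the IDR list stood at Y48A6B.3 (48.7), the nematode gene for an H/ACA core protein, at snu-13 (39.4), a C/D core protein, at garr-1 (25.4) and at dkc-1 (20.8), the pseudouridine synthase. The methyltransferase gene fib-1 and dao-5, a nucleolar phosphoprotein gene, had no pooled region there.

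At the 500 bp limit, the members farthest from a gene body were F58D5.11 (496 bp, signal 26.2), Y43F4B.11 (492 bp, 25.2) and Y43F8C.22 (488 bp, 9.55). Just outside lay regions at R10A10.3 (503 bp, 16.8), C06A1.9 (505 bp, 238.5) and F09G2.14 (506 bp, 9.37). Of these 6, the one at C06A1.9 was an IDR region. In all, 2 IDR regions had 2 snoRNA genes within 500 bp and none had 3.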

How the data were processed

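ZTF-7 ChIP-seq region lists of 2 biological replicates, of the pooled replicates and of the IDR step were used, on build ce11. Signal was deposited as 1 value per region from the peak caller and compares only within a list. The summit offset is deposited as another number per region. Per the deposited notes, the region lists derive from ChIP alignments and 1 further file. The aligner, peak caller and IDR cutoff were not given in the sources used here, and depth is unknown since no read counts were used. Lists on ce10 were not analysed here.

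Gene biotypes came from Ensembl release 115 (WBcel235, the same assembly as ce11) and sequence from RefSeq. A region was a member if its summit lay within 500 bp of a snoRNA gene. Counts were made in Python 3.11.15 with pandas 2.3.3, numpy 2.4.6 and scipy 1.17.1. Shares have exact Clopper-Pearson 95% intervals, differences Newcombe intervals and medians exact order-statistic intervals. No p-values were computed. The 2 libraries are the only replicates. The assignment of summits to genes was tested on simulated data. Named were the 10 strongest IDR regions of each main class, IDR regions lacking in 1 replicate, those nearest the 500 bp limit, hosts with 3 or more snoRNA genes and a list of snoRNP genes. The members, lists and motifs were chosen with earlier results of these data known, and the core window, the upstream element letters and the genes whose sequence is printed after the values were seen.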

Additional observations from a re-analysis of the deposited data

How the results depend on the processing

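The results were recomputed under 79 alternatives, and 59 values stayed within the interval of the value reported (or 1.5 times its count) and 20 moved out of it. The difference in IDR share between intronic and intergenic snoRNA regions changed sign among the alternatives. It was -6.20 points where the nearest gene of any kind had to be the snoRNA gene and -1.58 points within 1000 bp. Without replicate 1 it was 5.59 points and without replicate 2 it was 4.94 points. All values of this difference stayed within its interval of -8.80 to 15.3 points, which is too wide for this to show stability. Within 1000 bp there were 428 regions, 20.6% in the IDR list, and 26.3% of snoRNA genes had an IDR summit. With the snoRNA gene as the nearest gene 168 regions remained. The intronic share was then 17 of 76 (22.4%), below the interval of 23.5 to 41.7 of the share reported above. The intergenic share was 24 of 84 (28.6%). With only the IDR regions above that list's median signal the shares were 17.7% of regions and 13% of genes. Leaving out a replicate gave 22.4% to 25.8% of regions and 15.6% to 22.5% of genes. With a reciprocal overlap of 50%, 90.3% of the IDR regions had a region in both replicates. The core window held 79.2% of the summits of the 72 IDR regions at snoRNA genes; among the strongest 1311 regions of a single list it held 67.3% of 55 snoRNA summits without replicate 1 and 85.7% of 77 without replicate 2, and a window of 100 bp before the 5′ end held 72.2% of the 72 IDR summits; the core window and element alternatives were chosen after seeing the data. The cause of these shifts was not tested. No paired analysis was possible because there was only 1 group. Without read counts, the depth behind a region is unknown, so a region absent from a list cannot be called unbound.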
